A study of Mus musculus with 106 samples.

Results

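The globin genes encode the protein chains of hemoglobin. The 7 mouse genes described here, out of 21938 protein-coding genes with a promoter in the annotation, were Hba-a1, Hba-a2 and Hba-x of the alpha cluster and Hbb-bt, Hbb-bs, Hbb-bh1 and Hbb-y of the beta cluster. They were chosen by name, with earlier readings of the same peak lists known. Their levels by cell type are therefore given as a description without a test. The alpha cluster spans chr11:32276400-32297298 and the beta cluster chr7:103812524-103853216 (GRCm38), and both were read with 60 kb of flank on either side.

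H3K27ac, acetylation found at active enhancers and promoters, and H3K4me3, methylation found mainly at promoters, were profiled by chromatin immunoprecipitation sequencing (ChIP-seq) in cells of C57BL/6J wild-type mice. The animals were controls or had been made diabetic with streptozotocin at 42 to 45 mg/kg daily for 5 days, and diabetic animals with blood glucose above 13.9 mmol/L were taken 6 weeks after the last injection. The labels give an age of 12 to 14 weeks. Each mark was read in 12 preparations labelled hematopoietic stem cells (HSC), 6 control and 6 diabetic, and in 23 libraries of bone marrow-derived macrophages (BMDM) that were differentiated for 7 days in 5 mmol/L glucose. In each mark, 11 BMDM libraries were unstimulated and 12 had received lipopolysaccharide at 100 ng/mL with interferon gamma at 10 ng/mL for 16 h. The name HSC stands for whole marrow from which cells bearing CD3, CD4, B220, Ter119 or Gr1 had been removed. Ter119 marks maturing red cells and is not yet carried by early erythroid progenitors.

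Adult red cells make hemoglobin from alpha-type and beta-type chains that hold heme, and the embryonic genes Hba-x, Hbb-bh1 and Hbb-y are used earlier in development. Each cluster depends on enhancers far upstream of the genes. Those of the alpha cluster lie largely within introns of the neighboring gene Nprl3, and those of the beta cluster form the locus control region. GATA1, KLF1, TAL1 and NF-E2 are the transcription factors best known to act on both.

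The sequences below are those of 3 adult promoters, and in each cluster of 1 upstream window of 300 bases inside the acetylated stretch described later. Promoters are RefSeq sequences (GRCm38.p6) read 5′ to 3′ on the gene's strand, and 6 of the 7 members were matched; the window in each cluster was picked for its motif content after the peaks had been seen. Capitals mark matches to 4 motifs, each searched on both strands. The motif of the GATA factors was searched as AGATAA. The motif bound by KLF1 was searched as CCACCC and marked in the promoters only. The box bound by NF-Y was searched as CCAAT, likewise marked in the promoters only. The NF-E2 motif was searched as TGAGTCA. None of these overlap one another. Only the exact letters were matched, so near variants, such as CCACACCC in the Hbb-bs promoter and TGATAA in that of Hba-a1, are unmarked. A promoter without a marked motif may therefore still hold a site for the factor.

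Hba-a1 promoter, chr11:32283422-32283721, plus strand: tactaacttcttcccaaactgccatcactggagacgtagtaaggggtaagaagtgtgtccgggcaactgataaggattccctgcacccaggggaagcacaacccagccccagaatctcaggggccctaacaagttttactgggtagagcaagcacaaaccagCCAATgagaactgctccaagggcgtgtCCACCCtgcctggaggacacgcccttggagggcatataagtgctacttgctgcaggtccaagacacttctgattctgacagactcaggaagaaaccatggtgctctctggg

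Hbb-bs promoter, chr7:103827879-103828178, minus strand: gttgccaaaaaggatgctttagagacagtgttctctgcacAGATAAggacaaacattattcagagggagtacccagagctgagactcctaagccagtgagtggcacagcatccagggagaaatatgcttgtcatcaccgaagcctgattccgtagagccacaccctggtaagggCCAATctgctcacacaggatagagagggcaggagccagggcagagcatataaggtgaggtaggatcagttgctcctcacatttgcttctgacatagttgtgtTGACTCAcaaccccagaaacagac

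Hbb-bt promoter, chr7:103813874-103814173, minus strand: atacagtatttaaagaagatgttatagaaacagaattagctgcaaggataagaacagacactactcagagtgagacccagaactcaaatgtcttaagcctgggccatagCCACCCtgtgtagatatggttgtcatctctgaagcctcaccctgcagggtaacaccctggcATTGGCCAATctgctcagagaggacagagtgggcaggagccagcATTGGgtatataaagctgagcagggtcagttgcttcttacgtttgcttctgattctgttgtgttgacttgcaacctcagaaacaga

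Alpha upstream window, chr11:32245662-32245961, plus strand: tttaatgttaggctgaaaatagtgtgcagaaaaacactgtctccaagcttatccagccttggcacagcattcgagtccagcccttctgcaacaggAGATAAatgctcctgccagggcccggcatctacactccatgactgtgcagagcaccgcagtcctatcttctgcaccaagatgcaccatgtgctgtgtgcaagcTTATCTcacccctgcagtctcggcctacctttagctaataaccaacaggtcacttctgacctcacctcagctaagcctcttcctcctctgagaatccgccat

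Beta upstream window, chr7:103859109-103859408, plus strand: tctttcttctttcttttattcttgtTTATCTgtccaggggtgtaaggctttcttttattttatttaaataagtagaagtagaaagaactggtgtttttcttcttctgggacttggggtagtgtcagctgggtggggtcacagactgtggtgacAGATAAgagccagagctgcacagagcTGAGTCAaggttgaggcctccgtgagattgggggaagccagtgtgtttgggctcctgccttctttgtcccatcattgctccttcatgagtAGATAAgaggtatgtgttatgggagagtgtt

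The Hba-a1 and Hba-a2 promoters were identical over all 297 aligned bases, so only 1 of them is printed, whereas Hbb-bs and Hbb-bt matched at 78.2% of 289 aligned bases. Of 27025 RefSeq promoters of the same length, 11.4% held the GATA motif, 30.9% that of KLF1, 37.9% the NF-Y box and 5.17% the NF-E2 motif. The alpha upstream window lies 30.6 kb upstream of Hba-x in an intron of Nprl3 and holds 2 GATA matches, and 2.05% of 868638 tiles of 300 bases on chromosomes 7 and 11 held as many. The beta upstream window lies 6.04 kb upstream of Hbb-y outside any annotated protein-coding gene and holds 3 GATA matches and 1 NF-E2 match. Of the same tiles, 0.195% held as many GATA matches. Each window was the richest in GATA matches over all positions of its stretch, so these shares of fixed tiles do not measure how unusual it is.

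The near identity of the gene pairs limits what reads of 50 bases can tell. Of the 50-base words of the Hba-a1 gene body, 94.5% also occur within Hba-a2, and 67.3% of those in the promoter window are shared. For Hbb-bs, 67.2% of the gene body and 42.4% of the promoter window are shared with Hbb-bt. Peaks at Hba-a1 and Hba-a2, and at Hbb-bs and Hbb-bt, are therefore uncertain as to which copy they belong to.

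Peak lists differed greatly in length, from 51162 to 139452 peaks in HSC for H3K27ac and from 13730 to 145750 for H3K4me3. A level was therefore defined within each list, as the percentage of the 21938 promoters (1 kb to either side of any start site) whose strongest peak was weaker by −log10 p, with 0 where no summit fell in the window. A called peak can therefore score no lower than the share of promoters without a peak, which ran from 29.0% to 43.5% in the H3K27ac and from 26.2% to 59.5% in the H3K4me3 lists of HSC, highest in both in diabetic 6. In H3K27ac, all 10 stem and progenitor markers examined, such as Kit, Hlf and Mecom, had a higher median level in HSC than in BMDM, and none of 10 macrophage markers did. In H3K4me3, 5 of the 10 stem and progenitor markers did, Kit but not Hlf or Mecom, and again no macrophage marker. Of 9 erythroid markers measured, 7 had a higher median level in HSC than in BMDM in H3K27ac, and 3 did in H3K4me3. Of all 21938 promoters, the HSC median was the higher in 8405 for H3K27ac and in 7482 for H3K4me3. Klf1 and Gata1, erythroid transcription factors, had H3K27ac peaks in all 12 HSC lists and in 1 and 2 of 23 BMDM lists. Alas2, which starts erythroid heme synthesis, had one in 5 of 12 HSC lists and in no BMDM list. Slc4a1, Epor and Car2 had H3K27ac peaks in all 12 HSC lists, but also in 22, 22 and 23 BMDM lists. Rhag had no H3K27ac peak in either cell type. Because these are bulk preparations, more erythroid cells and more mark per cell cannot be told apart.

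All 4 adult globin promoters carried H3K27ac in HSC. Hba-a1 had a peak in every HSC list, at levels of 88.1, 53.9, 52.6, 69.3, 69.8 and 50.6 in control replicates 1 to 6 and of 51.0, 56.8, 50.0, 57.3, 85.5 and 88.8 in diabetic replicates 1 to 6. Control 1 and diabetic 5 and 6 stood highest, well above the other 9 preparations, whose highest level was 69.8. Its peak was enriched 5.34-fold to 18.4-fold over the local background (median 7.18-fold) and ranked among the 10000 strongest peaks of the list in 5 of 12 preparations.

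Hba-a2 levels were 71.4, 55.6, 51.6, 73.8, 69.8 and 53.0 in the controls and 55.2, 56.1, 53.2, 58.2, 73.0 and 82.7 in the diabetic preparations. Control 1, 4 and 5 and diabetic 5 and 6 were again the higher ones, and the 2 disease groups overlapped over most of their range. The summit lay a median of 610.5 bp into Hba-a1 and 450 bp into Hba-a2, within the stretch the 2 copies share.

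The beta-type genes were lower. Hbb-bs reached 62.1, 44.2, 43.3, 45.8, 58.7 and 43.4 in the controls and 50.2, 50.7, 47.6, 45.1, 61.6 and 59.9 in the diabetic preparations. Hbb-bt reached 61.3, 40.7, 51.4, 54.6, 57.4 and 39.6 in the controls and 53.5, 44.1, 0, 41.2, 50.5 and 70.6 in the diabetic preparations. The list of diabetic 3, the 1 without a summit in the Hbb-bt window, was also lowest for Hba-a1.

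The embryonic genes had little or no signal. Hba-x, the zeta-type chain, had H3K27ac in 7 of 12 HSC lists at levels up to 47.3, and Hbb-bh1 in 1 list, control 6, at 32.4. Hbb-y had no peak of either mark in any of the 70 lists. Promoters without H3K27ac in all 12 HSC lists made up 21.4% of all promoters, and those with a peak in all 12 made up 53.4%.

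By median H3K27ac level the order in HSC was Hba-a2 (57.1), Hba-a1 (57.1), Hbb-bt (51.0), Hbb-bs (48.9), Hba-x (33.0), and then Hbb-bh1 and Hbb-y at 0. Neighbors in this order did not all differ beyond their spread. Hba-a2 was above Hba-a1 in 6 of 12 preparations and Hbb-bt above Hbb-bs in 4, whereas Hba-a1 was above Hbb-bt in 11 (mean difference 17.4 ± 14.2 percentage points, SD, n = 12 preparations) and Hbb-bs above Hba-x in 12. The level is a rank among promoters in 1 list, not an amount of mark per length.

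**Figure D1:**
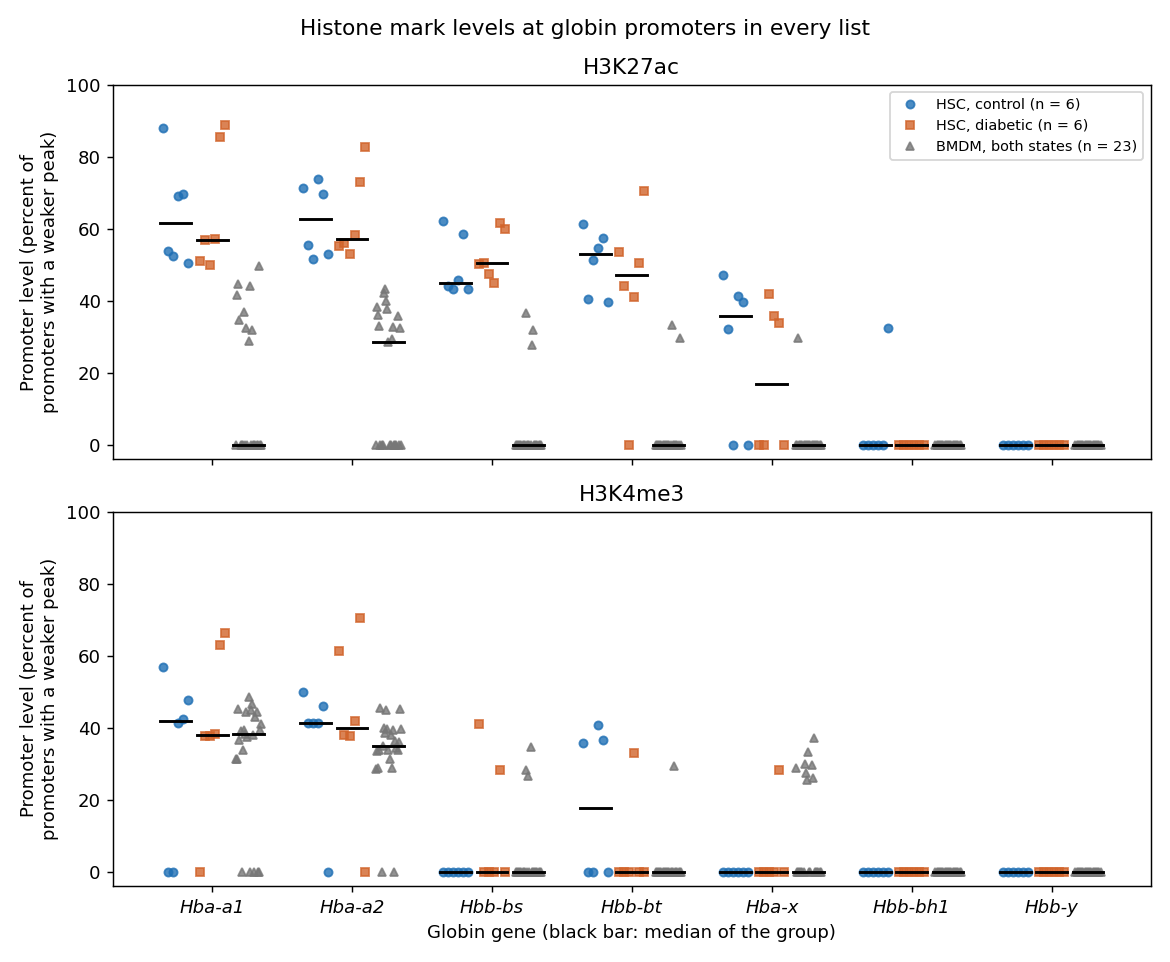
Promoter level (percent of promoters with a weaker peak in the same list) of the 7 globin genes for H3K27ac (top) and H3K4me3 (bottom), with 1 point per list for control HSC, diabetic HSC and BMDM and a black bar at each group's median. For H3K27ac the adult genes in HSC sit above most BMDM points, whereas for H3K4me3 the Hba-a1 and Hba-a2 ranges of HSC and BMDM overlap.

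In BMDM, H3K27ac at the globin genes was weaker and often absent. Hba-a1 had a peak in 9 of 23 BMDM lists at levels up to 49.6, and Hba-a2 in 12 at levels up to 43.3. Hbb-bs had a peak in 3 lists, Hbb-bt in 2, Hba-x in 1 and Hbb-bh1 in none. Every HSC level of Hba-a1, Hba-a2 and Hbb-bs was above every BMDM level, which was the case for 0.479% of the 17941 promoters with an H3K27ac peak in any list (1.06% were wholly lower in HSC). The Hba-a1 gap was narrow, from 49.6 in the highest BMDM list to 50.0 in the lowest HSC list. Hbb-bt overlapped through diabetic 3 alone, its other 11 HSC levels lying at 39.6 or more against a BMDM maximum of 33.3.

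The BMDM summits at the alpha genes lay where the HSC summits did, at a median of 630 bp into Hba-a1 and 468 bp into Hba-a2. They were weak, at a median enrichment of 3.61-fold and 3.44-fold, and none was among the 10000 strongest of its list. The part of read assignment between the copies in these summits was not tested.

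Upstream of the alpha genes, H3K27ac formed a broad series of peaks in HSC. In the 30 kb from 10 to 40 kb upstream of Hba-x, chr11:32236400-32266400, HSC lists held 15 to 40 summits (median 22) and BMDM lists 0 to 5 (median 2). Control 5 and diabetic 6, with 40 and 37 summits, were highest, and diabetic 4 was lowest. Peaks with a summit in this stretch had a total length of 5378 to 16857 bp in HSC and 0 to 2946 bp in BMDM. How many other stretches of this length would differ as much was not examined. The level of the strongest summit in the stretch overlapped between the cell types. It ran from 43.4 to 68.3 in HSC (median 53.7) and from 0 to 61.2 in BMDM (median 44.1). Within the 60 kb upstream, all 23 BMDM lists had a distal summit, the strongest at a median level of 50.8 beside 53.0 in HSC. The stretch was chosen after the peaks had been seen and lies within Nprl3, over introns, exons and internal start sites of that gene. The window with 2 GATA matches printed earlier is part of it and had a summit within 1 kb in 12 HSC lists and 2 BMDM lists. Summits were dense over the whole stretch in HSC, and the counts for other windows of it were not examined.

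When the genome was divided into 1-kb bins, 173 of the 510774 bins with any H3K27ac summit (0.0339%) had one in all 12 HSC lists and in none of the 23 BMDM lists. The alpha locus with its flanks held 5 of them, centered 32.9, 31.9, 25.9, 19.9 and 6.9 kb upstream of Hba-x. The bins at 25.9 and 19.9 kb lie within 1 kb of an annotated Nprl3 start site. The beta locus held 1, inside Hbb-bs. Median levels in the 5 alpha bins ran from 41.5 to 48.5, below the levels of the adult alpha promoters.

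**Figure D2:**
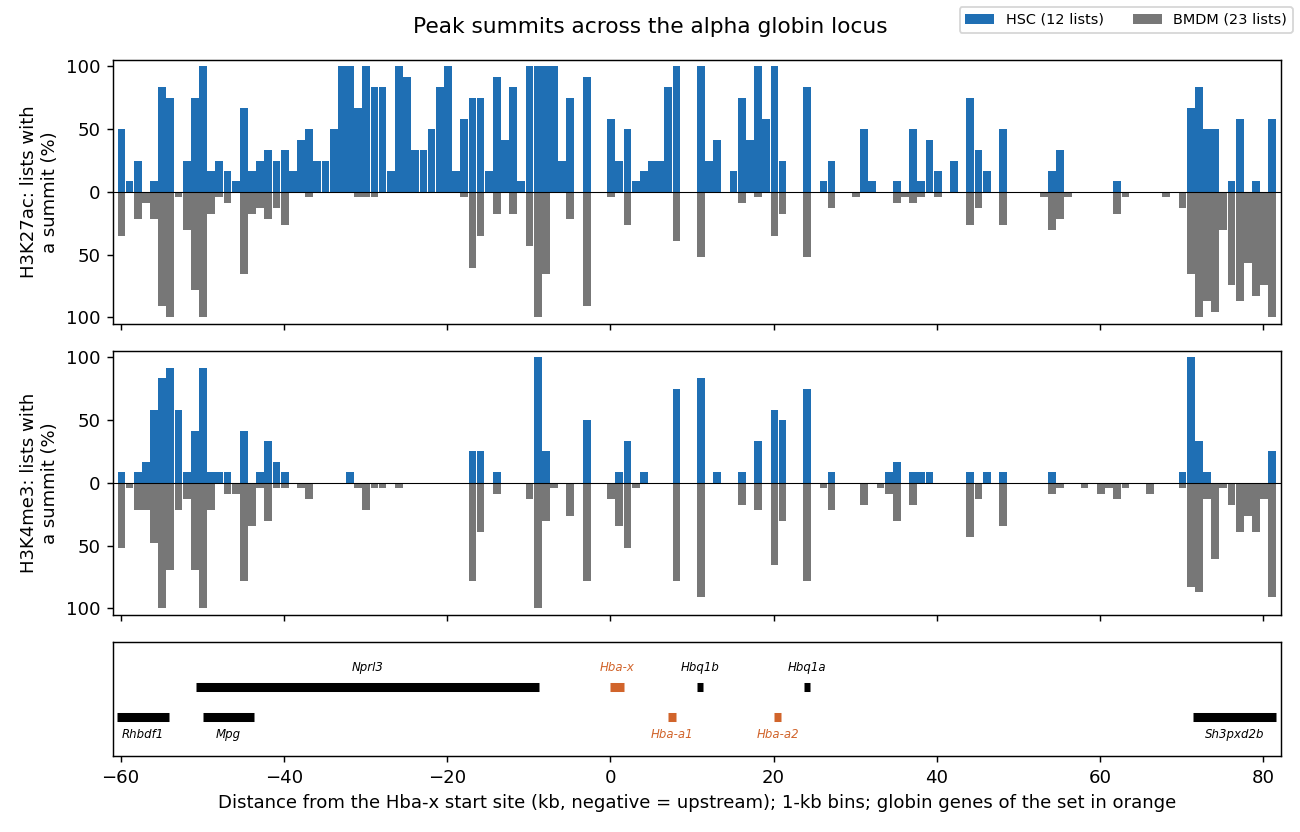
Share of lists with a peak summit in each 1-kb bin of the alpha globin locus by distance from the Hba-x start site in kb, for HSC (blue, upward, 12 lists) and BMDM (gray, downward, 23 lists), with H3K27ac in the top panel, H3K4me3 in the middle and genes at the bottom. The HSC bars for H3K27ac fill the stretch from 10 to 40 kb upstream, where H3K4me3 bars are few in both cell types.

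Over the alpha genes themselves, from Hba-x to the end of Hba-a2, H3K27ac peaks covered 11.6% to 42.9% of the sequence in HSC (median 29.0%) and 0 to 13.4% in BMDM (median 2.99%). For the beta genes, from Hbb-bt to Hbb-y, the shares were 3.13% to 11.9% in HSC and 0 to 4.47% in BMDM. Both pairs of ranges overlapped in part.

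The beta upstream region was sparser and more variable. In the 20 kb from 5 to 25 kb upstream of Hbb-y, chr7:103858216-103878216, 10 of 12 HSC lists held between 1 and 10 H3K27ac summits, and 3 of 23 BMDM lists held 1 each. Diabetic 6 had 10 summits and control 5 had 9, whereas control 2 and 3 had none. No single 1-kb bin there was marked in all 12 HSC lists; the most frequent, 14.3 kb upstream, had a summit in 7 HSC lists and no BMDM list. The printed beta window with 3 GATA matches had a summit within 1 kb in 4 HSC lists and in no BMDM list.

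**Figure D3:**
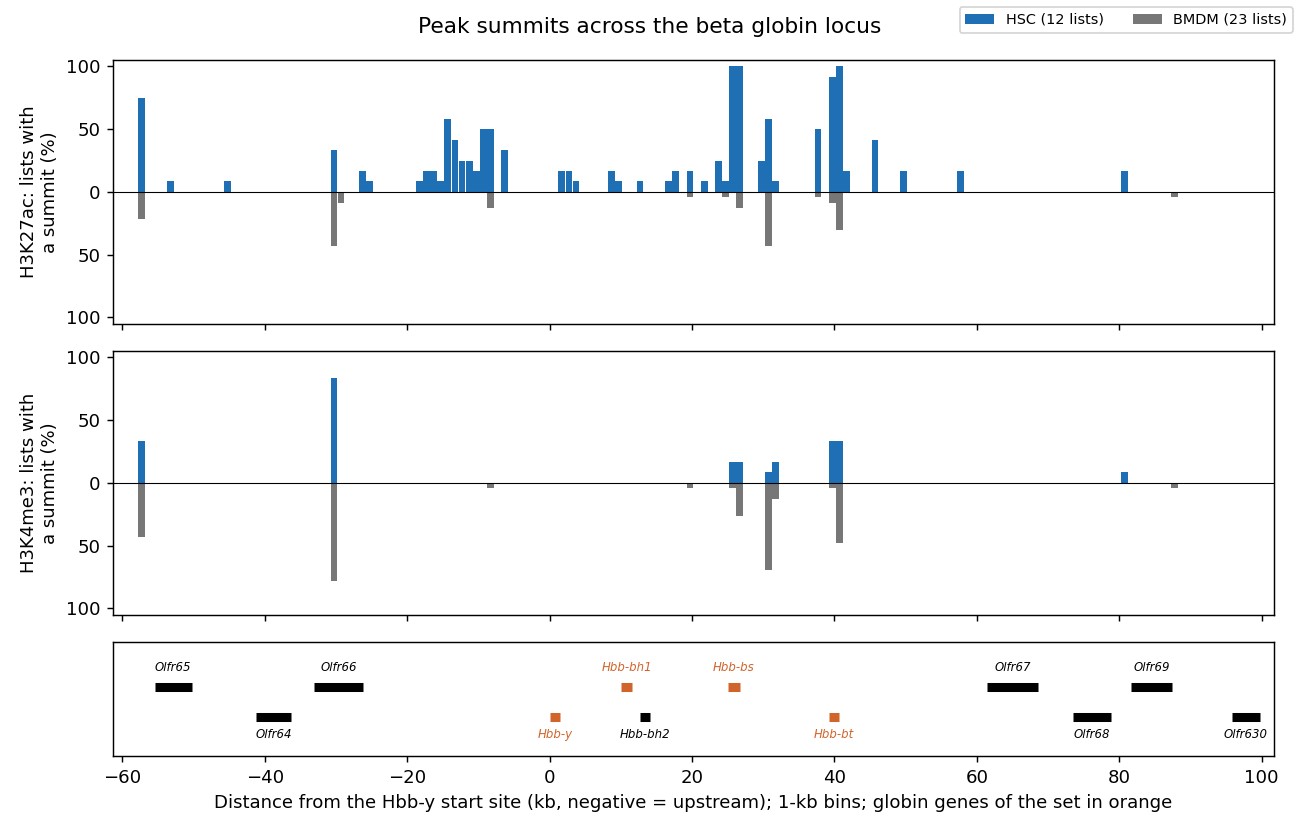
Share of lists with a peak summit in each 1-kb bin of the beta globin locus by distance from the Hbb-y start site in kb, drawn as for the alpha locus with HSC upward and BMDM downward. H3K27ac bars of HSC gather at Hbb-bs and Hbb-bt and between 5 and 25 kb upstream of Hbb-y, and the olfactory receptor genes on either side are mostly blank.

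Among the 12 HSC preparations the same few were high across both clusters. Over 8 H3K27ac measures (the 4 adult promoter levels, and summits upstream and gene cluster coverage in both clusters), diabetic 6 and control 5 were among the top 5 preparations in 8 of 8, control 4 in 7, and control 1 and diabetic 5 in 6. The next, control 6, was among them in 3, and control 2 and 3 and diabetic 3 and 4 in none. The high preparations thus included 3 controls and 2 diabetic preparations. They were not those with the longest lists: diabetic 6 had the shortest H3K27ac list of the 12, at 51162 peaks and with the highest floor on its levels, and control 4 the second longest, at 137200.

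A relation with list length was examined for 6 elements in each mark, 12 relations in all, after the data had been seen. None passed an adjusted p of 0.05 (100000 permutations, two-sided). Pearson's r between the H3K27ac level and the log10 number of peaks ran from −0.181 to −0.305 over the 4 adult promoters (adjusted p of 0.615 or more; Spearman's rho −0.112 to −0.371). It was further from 0 for the alpha upstream distal summit, at −0.665 in H3K27ac (adjusted p = 0.0905; rho −0.462, permutation p = 0.134) and −0.709 in H3K4me3 (adjusted p = 0.0905; rho −0.294, permutation p = 0.353). Without the 2 lists farthest from the median length it was −0.107 and −0.449. For the beta upstream distal summit in H3K27ac it was −0.509 (adjusted permutation p = 0.209). The lowest adjusted p, 0.0883, belonged to the beta upstream summit in H3K4me3 (r = 0.721; rho 0.799, permutation p = 0.0023), which was found in 4 lists.

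Other promoters varied along with the adult globins. Across the 12 H3K27ac lists, Pearson's r with the mean adult globin level was computed for 14991 promoters with a peak in at least 6 lists, as a description over libraries that also share depth and quality. The 39 erythroid genes among them had a median r of 0.626, and 36 were above 0, beside a median of −0.116 and 42.4% above 0 over all promoters. The erythroid list was drawn up with earlier results known, and Ahsp, a chaperone of alpha globin, was not matched to the annotation.

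The membrane and enzyme group followed the globins most closely, with a median r of 0.771 and 17 of 17 above 0. Slc4a1, the band 3 anion exchanger of red cells, had an r of 0.793 and HSC levels from 42.7 to 87.8. Epb42, a protein that anchors band 3, had 0.752, and Car2, a carbonic anhydrase, 0.717. This did not carry over to H3K4me3, read against the mean adult globin level of that mark. There r was −0.42 for Slc4a1, 0.45 for Epb42 and −0.68 for Car2, and the group had a median of 0.192 with 10 of 15 above 0.

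Among 12 regulators the median r was 0.545 and 10 were above 0. Klf1 had an r of 0.741 with levels from 34.1 to 77.2, Gata1 0.588, Tal1 0.562 and Nfe2, a subunit of NF-E2, 0.0864. The 10 heme and iron genes had a median of 0.348. Alas2 had too few lists with a peak to be included.

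Markers of stem and progenitor cells, macrophages, neutrophils and B cells had negative medians. Median r was −0.298 over 10 stem and progenitor markers (1 above 0), −0.520 over 5 macrophage, −0.311 over 6 neutrophil and −0.317 over 7 B cell markers, with 1, 0 and 0 above 0. Over 4 T cell and 4 megakaryocyte markers it was 0.0909 and 0.252, with 3 of 4 above 0 in each. The part of cell makeup in the variation was not tested.

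The promoters most like the adult globins included Ccdc191 and Qtrt2, which share a start region (r = 0.950), Ackr1, Dctn6, Gm12258, Pdzk1ip1, Brwd3, Hemgn and Commd8 (0.924 or more). Ackr1 encodes the Duffy chemokine receptor of red cells and Hemgn a nuclear protein of hematopoietic cells. These are among the highest of 14991 values and were selected for being so.

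At the adult alpha genes the level was lower in H3K4me3 than in H3K27ac, in 12 of 12 preparations for Hba-a1 and 11 for Hba-a2, each as a rank within its own list. Hba-a1 had an H3K4me3 peak in 9 of 12 HSC lists (lowest level 0, median 39.8, highest 66.3) and Hba-a2 in 10 (lowest 0, median 41.3, highest 70.5). Hbb-bt had one in 4 lists, at most at 40.7, Hbb-bs in 2, at most at 41.1, Hba-x in 1 and Hbb-bh1 in none. No preparation had H3K4me3 at a globin promoter without H3K27ac there, and both marks were present at Hba-a1 in 9, at Hba-a2 in 10, at Hbb-bt in 4 and at Hbb-bs in 2 of 12 preparations.

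The H3K4me3 levels did not set HSC apart from BMDM. Hba-a1 had a peak in 18 of 23 BMDM lists (median 38.3, highest 48.6) and Hba-a2 in 21 (median 35.1, highest 45.5). The ranges of every member overlapped between the cell types, and 0.0109% of 18282 promoters lay wholly higher in HSC. In the alpha stretch from 10 to 40 kb upstream, H3K4me3 lists of HSC held 0 to 2 summits and those of BMDM 0 to 4. In the beta stretch no HSC list and 1 BMDM list had a summit.

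The 2 marks were then compared across the 12 HSC preparations, joined by disease group and replicate number. That the libraries of 1 number come from the same preparation is an assumption, drawn from the sample titles and the input named with each list, and every value across marks rests on it, the counts of promoters with both marks included. At Hba-a1 the H3K4me3 level rose with the H3K27ac level (Pearson's r = 0.732, permutation p = 0.00743, adjusted p = 0.0446 over 6 relations; Spearman's rho = 0.690, adjusted p = 0.0985). It was 0.655 within controls and 0.827 within diabetic preparations, and 0.618 without diabetic 6 and control 1, the 2 farthest from the median. The relation rested in part on the 3 preparations at 85.5 or more: over the 9 at 69.8 or less, r was 0.420 (exact permutation p = 0.232; rho 0.271, exact permutation p = 0.481). Its call was lost in 7 of 12 runs that left out 1 preparation each, with r from 0.670 to 0.821 and adjusted p up to 0.127. The H3K4me3 level of diabetic 6, 66.3, was the highest of the 12, yet its peak had the lowest enrichment (2.82-fold) and −log10 p (6.42) of the 9 lists with one, and no called peak of that short list could score under 59.5. Without diabetic 6, r was 0.670 (adjusted permutation p = 0.127).

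Hba-a2, with a promoter of the same sequence, had no such relation. Its r was −0.0454 (adjusted permutation p = 0.890), since diabetic 6, highest in H3K27ac at 82.7, had no H3K4me3 summit in the Hba-a2 window. That H3K4me3 list was the shortest of all 70, with 13730 peaks, and r was 0.471 without it. Which of the near-identical copies received a read bears on both values and was not tested.

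The strongest distal summit in the 60 kb upstream of Hba-x was picked separately in each list. The values of the marks may therefore come from different sites. For this summit r was 0.741 (adjusted permutation p = 0.0464), but rho was 0.266 (adjusted permutation p = 0.581). The value rested on diabetic 6: r was 0.136 without it and diabetic 2, and −0.917 within controls against 0.971 within diabetic preparations. The floor of 59.5 also applied to the H3K4me3 level of diabetic 6 here, 79.3. That level came from outside the stretch from 10 to 40 kb upstream, where the list had no summit. The call was lost in 8 of 12 runs that left out 1 preparation, and with promoter windows of 2000 bp r turned to −0.684 (adjusted permutation p = 0.0380). Hbb-bs, Hbb-bt and the beta upstream summit had r of 0.235, 0.287 and −0.238, with adjusted p of 0.602 for each.

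**Figure D4:**
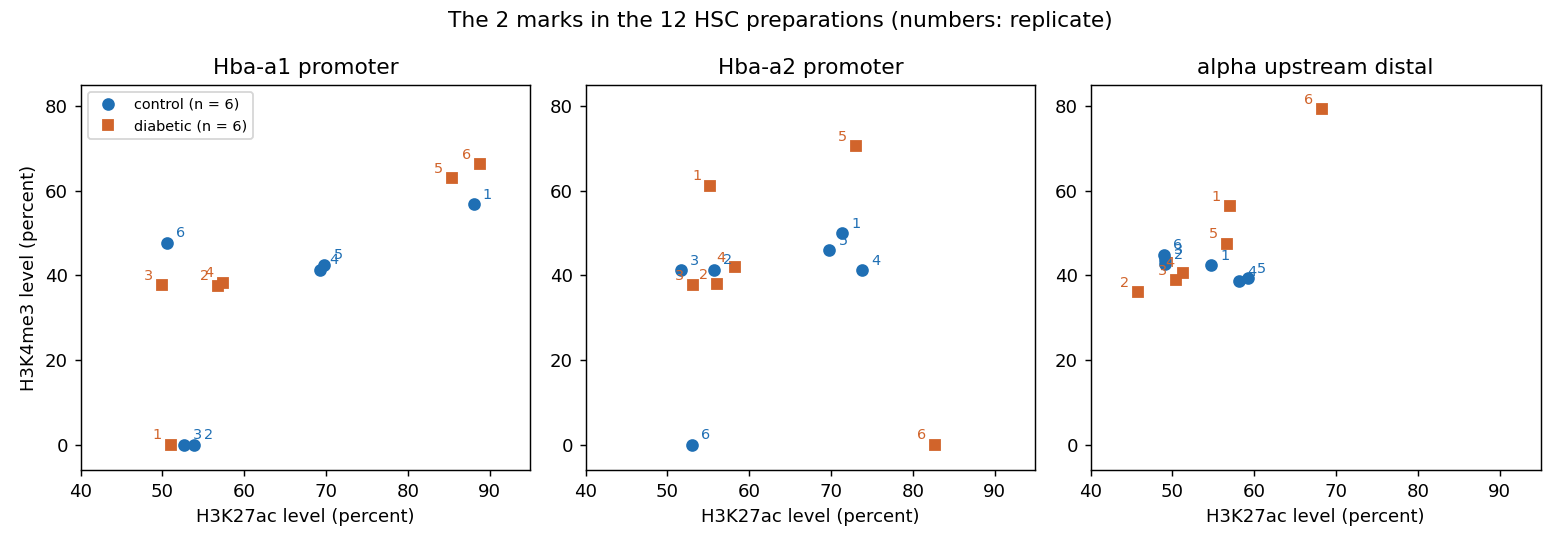
H3K27ac level (x axis, percent) against H3K4me3 level (y axis, percent) of the 12 HSC preparations, 6 control and 6 diabetic, numbered by replicate, at Hba-a1, Hba-a2 and the strongest distal summit upstream of the alpha cluster. The upstream summit was picked separately in each list. At Hba-a1 control 1 and diabetic 5 and 6 have the highest levels in both marks, that of diabetic 6 in H3K4me3 lying near the floor of 59.5 of its short list, at Hba-a2 diabetic 6 lacks an H3K4me3 peak, and at the upstream summit diabetic 6 lies apart from the rest.

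The question of whether diabetes altered the globin loci in HSC was addressed with an exact two-sided permutation test of 6 against 6 preparations, adjusted by Benjamini-Hochberg over all promoters tested. No adult globin promoter differed in H3K27ac beyond the spread between preparations. Mean levels of Hba-a1 were 64.04 ± 14.5 in control and 64.9 ± 17.5 in diabetic HSC (SD, n = 6 each; exact p = 0.887, adjusted p = 1.0), and 2 of 6 diabetic preparations were above the control mean. Hbb-bt, with the widest difference, had 50.8 ± 8.90 and 43.3 ± 23.6 (SD, n = 6 each; exact p = 0.571, adjusted p = 1.0).

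Exact p was 0.935 for Hba-a2 and 0.511 for Hbb-bs, with adjusted p of 1.0 for both. As background, 2.81% of 17239 promoters had an unadjusted p under 0.05 in H3K27ac, and none (0.0%) an adjusted p under 0.05. With adjustment over so many promoters, a call resting on the smallest possible p of 0.00216 alone needed 747 of them at that p, and 18 reached it.

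In H3K4me3 the differences at the promoters were no clearer. Hba-a1 had mean levels of 31.4 ± 24.9 in control and 40.5 ± 23.8 in diabetic HSC (SD, n = 6 each; exact p = 0.558, adjusted p = 1.0). The smallest p among the adult promoters was that of Hbb-bt, present in 3 control lists and 1 diabetic list (exact permutation p = 0.182, adjusted p = 1.0). In this mark 3.09% of 17416 promoters had an unadjusted p under 0.05, and none an adjusted one.

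The strongest upstream distal summits also overlapped between the disease groups. Each was taken from the whole 60 kb upstream, not only from the stretches described earlier. In the beta stretch, control 2 and 3 had no H3K27ac summit, and no HSC list had an H3K4me3 summit, so their values came from elsewhere. The alpha summit had H3K27ac levels of 53.2 ± 4.79 and 54.9 ± 7.79 and the beta summit 44.6 ± 10.2 and 44.0 ± 9.72 in control and diabetic HSC (SD, n = 6 each; exact p = 0.675 and 0.924, adjusted p = 0.900 and 0.924 over 4 tests). In H3K4me3 the adjusted p was 0.632 for each.

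Of the 43 erythroid genes measured, none had an unadjusted exact p under 0.05 in H3K27ac. In H3K4me3, 2 of 43 did, both higher in diabetic HSC as 1.22% of all promoters were: Epb41, protein 4.1 of the red cell membrane skeleton (90.5 ± 5.08 in control, 95.8 ± 1.06 in diabetic, SD, n = 6 each; exact p = 0.0433, adjusted p = 1.0), and Dmtn, the actin-bundling protein dematin (66.5 ± 10.99 and 79.8 ± 8.20; exact p = 0.0368, adjusted p = 1.0).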

How the data were processed

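ChIP-seq peak lists of 70 libraries were read; the 36 input samples of the 106 have no list of their own here. The labels give single-end reads of 50 bases. The submitters' processing notes name Trim Galore 0.3.3, cutadapt 1.8, FastQC 0.11.3, Bowtie2 2.2.6, Picard 2.19.2 and 2.18.14, bedtools 2.19.1, MACS2 2.2.7.1 and GRCm38/mm10, and 0 peaks ran past the ends of 21 GRCm38 chromosomes. In the deposited lists each summit has a score, a fold enrichment (a ratio over background), and a −log10 p and −log10 q set by the authors, with q of 0.05 or less. No read totals are given, so depth and counting error are unknown and levels were ranked within each list.

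Promoters came from GENCODE M21 (93513 start sites). Distal summits lay over 1 kb from any of them. Groups follow the labels; BMDM of both states were pooled, since an earlier reading of these lists put some control BMDM libraries against their stimulation label. That reading was not repeated here. Permutation tests were written in Python 3.11.15 with numpy 2.4.6, pandas 2.3.3 and scipy 1.17.1 and tested on simulated data; Biopython 1.88 aligned promoters. Named genes were the 7 members, protein-coding neighbors, the 10 promoters most like the adult globins in each mark, and 10 preset erythroid genes plus any with p under 0.05. Some of these are not reported here. Members and lists were chosen with earlier results of these data known. The study's methods count n as individual animals. Alternatives were ranking by fold, log10 ranks, windows of 500 and 2000 bp, interval overlap, q of 0.001, the top 10000 peaks, a minimum of 6 lists, a replicate block and leaving out each preparation.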

Additional observations from a re-analysis of the deposited data

Results flagged for a closer look

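In groups of 6 HSC libraries, an extreme value was marked when the distance to its neighbor, divided by the whole range, exceeded Dixon's critical value. Of 31 series of values that varied, 5 held such a value. The critical value lets chance mark about 1 in 20 groups of continuous values, which does not hold for levels set to 0 without a peak: in 4 of the 5 series the other 5 levels were all 0, so the number is not read against chance. In each of the 5 a single list differed from the others in whether it had a summit at all. In H3K27ac, Hbb-bh1 had a level of 32.4 in control replicate 6 and 0 in the other 5 controls. In H3K4me3, the beta upstream distal level was 31.2 in control replicate 1 and 0 in the other 5 controls, and Hba-a2 was at 0 in control replicate 6 beside 41.2 to 50.0 in the others. Also in H3K4me3, Hba-x reached 28.3 in diabetic replicate 5 and Hbb-bt 33.0 in diabetic replicate 4, each beside 0 in the other 5 diabetic lists.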

How the results depend on the processing

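No disease difference in HSC at an adult globin promoter or upstream summit passed an adjusted p of 0.05 under any alternative, and the sign of many changed. Disease groups were not tested in BMDM. Diabetic minus control in H3K27ac became −2.32 for Hba-a1, −2.25 for Hba-a2 and −1.67 for the alpha upstream summit when ranked by fold. It became 0.0166 for Hbb-bt on the log10 rank scale, −1.58 for Hbb-bs with windows of 2000 bp, and −1.50 for Hbb-bs with interval overlap. With the top 10000 peaks it was −19.8 for Hbb-bs and 1.55 for Hbb-bt. The beta upstream summit gave 1.08 with windows of 500 bp, 4.69 at q of 0.001 and 10.3 with the top 10000 peaks. In H3K4me3, windows of 500 bp gave −2.06 for Hba-a1, −6.49 for Hba-a2 and −17.3 for the beta upstream summit, and windows of 2000 bp −6.68 for the alpha upstream summit.

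The r between marks was less stable. For Hba-a1 it could not be computed on the log10 rank scale, which sets ranks of 10000 and beyond to 0. No H3K4me3 peak of Hba-a1 in HSC was among the 10000 strongest of its list. The r of Hba-a1 was 0.343 with windows of 500 bp and 0.525 with the top 10000 peaks. Over the 9 preparations below the widest gap, a choice made after seeing the data, it was 0.420. For the alpha upstream summit it was 0.610 by fold, 1.0 on the log10 rank scale (adjusted permutation p = 0.499), 0.452 with windows of 500 bp, −0.684 with windows of 2000 bp (adjusted permutation p = 0.0380) and 0.119 with the top 10000 peaks. For Hba-a2 it was 0.0156 by fold, 0.211 on the log10 rank scale, 0.292 with windows of 500 bp, 0.0682 at q of 0.001 and 0.282 with the top 10000 peaks. The cause of the other changes was not tested.

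Leaving out each preparation in turn gave r from 0.670 to 0.821 for Hba-a1, −0.284 to 0.471 for Hba-a2 and 0.315 to 0.829 for the alpha upstream summit, lowest without diabetic 6. Disease differences in H3K27ac then ran from −3.92 to 5.66 for Hba-a1, −3.43 to 2.75 for Hba-a2, −13.0 to 1.15 for Hbb-bt, −0.982 to 3.52 for the alpha and −4.09 to 2.25 for the beta upstream summit. In H3K4me3, that of Hba-a2 ran from −2.43 to 13.2.

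The 485 H3K27ac and 538 H3K4me3 promoters at p under 0.05 became 243 and 283 on the log10 rank scale and 283 and 343 with the top 10000 peaks, settings that test fewer promoters, and 470 to 615 and 425 to 916 on leaving out a preparation, the last without diabetic 1. With the replicate block, which pairs samples by replicate number, they became 282 and 323. With 6 pairs the smallest possible p is 0.03125, so no adjusted call could be made under the block. Same-numbered control and diabetic preparations correlated from −0.280 to 0.174, so the numbers were not taken to pair animals.

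The lists state no depth, so a level of 0 says only that no peak was called in that list, and the lists of HSC differ in length. Levels are ranks and do not measure the amount of mark.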

Other observations

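Hbq1b and Hbq1a, theta-type globin genes of the same cluster, had H3K27ac in 12 and 10 of 12 HSC lists and in 12 of 23 BMDM lists each, and H3K4me3 in 10 and 9 HSC lists and 21 and 18 BMDM lists. Their median H3K27ac levels in HSC were 55.4 and 41.1, and in BMDM 30.1 for each. Their H3K4me3 ranges overlapped between the cell types, as did those of Hba-a1 and Hba-a2.

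The neighbors of the alpha cluster carried both marks in both cell types. Nprl3, which spans the upstream stretch, had a median H3K27ac level of 86.4 in HSC and 85.9 in BMDM at its promoters, and Mpg, a DNA repair glycosylase, 74.9 and 82.1. Rhbdf1, an inactive rhomboid protease, had 53.8 and 53.3. Sh3pxd2b, an adaptor of podosomes, lay the other way from the globins, with every HSC level (49.2 to 70.7) below every BMDM level (73.5 to 97.9), as for 1.06% of promoters.

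Beside the beta cluster, the olfactory receptor genes Olfr630, Olfr69, Olfr68, Olfr67 and Olfr64 had no promoter peak of either mark in any list, and Olfr65 had H3K27ac in 1 HSC list. Olfr66 differed, with H3K4me3 in 10 of 12 HSC lists and 18 of 23 BMDM lists. Hbb-bh2 had H3K27ac in 1 HSC list.

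In H3K4me3, the promoters most like the mean adult globin level across the 12 HSC lists were Nup133 (r = 0.963), Ssu72, Nhej1, Mrpl36, Cwc15, Kdm4d, Thap12, Siah1b, Zfp397 and Eya3 (0.862 or more), none of them in the erythroid list. The median r of 35 erythroid genes was 0.255 and 26 were above 0, beside 0.0932 and 58.9% over all promoters.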
